A study of Mus musculus with 12 samples.

Results

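The genes described here were close to silent in cultured mouse bone marrow stromal cells and were expressed in libraries of cells that the labels give as the same kind, taken back from a tumour inoculation site. A gene belongs to the set when its mean over the 3 cultured libraries (NC) was at most 0.1 FPKM and its mean over the 3 inoculation-site libraries (TUMOR) was at least 2 FPKM. FPKM is a fragment count divided by transcript length and by library depth, so it can be compared between genes of different length. The tables hold 21001 genes, of which 19629 had a matched symbol. Among these, 6448 were at or under the NC limit, and 55 of them also reached the TUMOR limit. Among the 55, 12 were left out as keratin, Hox or Rhox genes or as X- or Y-linked genes, and 43 remained, of which 39 are protein coding and 4 are long non-coding RNAs. Because NC and TUMOR values chose these genes, their levels in those 2 groups are a description and carry no test. The comparison between the 2 marrow groups was not used to choose them, and it is the only one tested for the members.

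All 12 libraries came from C57BL/6 mouse cells labelled as wild type (spelled "wide type"), and all groups carry a GFP mark. NC is primary cultured GFP-BMSCs. HOMING is GFP-BMSCs taken from marrow after GFP-BMSCs alone were injected under the skin. BM is GFP-BMSCs recovered from the marrow of tumour-bearing mice given RFP-LLCs together with GFP-BMSCs, and TUMOR is the GFP-BMSCs from the inoculation site in co-injected mice. LLC is a mouse lung carcinoma line, here marked with red fluorescent protein. Each group has 3 libraries, with 43232145 to 46166519 expected counts per library. The labels do not say whether replicates are separate animals or cultures, so p-values measure the spread between these samples, which may be technical. The sort gate, its purity, the age of the mice and the time of recovery are not given in the sources used here.

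A gene can be silent because the factors that drive it are missing, or because its promoter is held closed. In mammals a closed promoter often carries methylated CpG dinucleotides or histone marks laid down by the Polycomb complexes, and promoters rich in CpG are the usual Polycomb targets. Genes that specify other lineages, such as factors of neural crest, gonad and forebrain, are commonly kept in this state in differentiated cells.

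The set was not 1 pathway. It held 6 transcription factors and cofactors, 5 secreted and matrix proteins, 5 receptors and signalling proteins, 5 ion channels and transporters, 3 sugar-modifying enzymes, 6 regulators of the cytoskeleton and small GTPases, 5 immune genes, 3 adaptors and other membrane proteins, and 5 predicted or non-coding genes. The members lay on 15 chromosomes, with no more than 6 on any of them. H2-DMb1 and Psmb8, both in the major histocompatibility complex, were the closest pair, with 2 coding genes between them, and the next closest pair had 48 between them.

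The promoters of 3 members show how different the members are in sequence. The 250 bases before the annotated start were taken from RefSeq on GRCm38.p6, with CpG dinucleotides in capitals, 5′ to 3′. Dpt is shown as the member with the highest level in TUMOR, Tmem200b for the highest ratio of observed to expected CpG in the set, and Pax9 as the developmental factor with the highest level in TUMOR. Dpt lies at chr1:164796413-164796662, Tmem200b at chr4:131921521-131921770 and Pax9 at chr12:56695221-56695470, all on the plus strand.
Dpt: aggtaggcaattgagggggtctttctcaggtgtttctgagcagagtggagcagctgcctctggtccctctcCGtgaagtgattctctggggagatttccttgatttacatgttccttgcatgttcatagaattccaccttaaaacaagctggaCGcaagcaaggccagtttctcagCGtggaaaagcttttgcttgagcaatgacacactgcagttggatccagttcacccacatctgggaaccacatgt
Tmem200b: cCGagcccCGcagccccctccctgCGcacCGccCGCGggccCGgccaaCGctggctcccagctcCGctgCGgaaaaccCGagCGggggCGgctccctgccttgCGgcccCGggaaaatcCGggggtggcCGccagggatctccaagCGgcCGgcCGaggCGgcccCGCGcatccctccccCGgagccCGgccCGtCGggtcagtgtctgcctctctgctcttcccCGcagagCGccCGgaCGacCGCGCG
Pax9: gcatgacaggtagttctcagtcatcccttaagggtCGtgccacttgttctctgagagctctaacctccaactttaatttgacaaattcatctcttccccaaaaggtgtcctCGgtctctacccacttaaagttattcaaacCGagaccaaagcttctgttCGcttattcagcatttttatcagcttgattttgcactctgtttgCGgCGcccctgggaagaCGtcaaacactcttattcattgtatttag
The Dpt window has 3 CpG, a ratio of observed to expected CpG of 0.202, and the Tmem200b window has 34, a ratio of 0.906. Pax9 lies between them with 7 CpG and a ratio of 0.617.

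Before the levels are given, 1 library needs to be named. The summed FPKM of the 43 members was 1.76, 1.5 and 1.86 in NC, 44.9, 41.3 and 66.8 in HOMING, 42.9, 42.3 and 42.5 in BM, and 280 (279.53), 154 and 165 in TUMOR. TUMOR replicate 1 was the highest of the 3 TUMOR libraries for 43 of 43 members, and for each of them also when counts were scaled to library totals. Its level was 1.38 to 2.12 times the mean of the other 2 TUMOR libraries, with a median of 1.77. The same ratio had a median of 0.997 over all expressed genes and of 1.19 over the 1157 other genes called higher in TUMOR than in NC. Replicate 1 was the highest TUMOR library for 75.9% of these 1157 genes. It was the highest for 39.7% of the 10295 genes not called in TUMOR against NC and 14.4% of the 819 called lower. Without TUMOR replicate 1 the rule finds 34 members, all of them among the 43, and the 9 lost include Ctbs, Enthd1, Inpp5d, Psd4, Psmb8, Smoc1 and Wasf3.

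Markers that were near 0 or low in NC and high in TUMOR, as the members are, did not all follow them between the marrow groups. Y-linked genes (Ddx3y, Eif2s3y, Kdm5d and Uty, summed) stood at 0 to 0.02 FPKM in NC, 2.89 to 4.37 in HOMING, 2.02 to 2.21 in BM and 6.29 to 11.9 in TUMOR, and Xist did not exceed 0.24 in any library. Within TUMOR, the Y-linked sum of replicate 1 was 1.89 times the mean of the other 2 libraries, and its BM mean was 25.7% of its TUMOR mean. Of the 22 epithelial genes in the tables, 2 were high enough to test, and both were higher in TUMOR than in NC. These are Krt8, which the rule would have admitted had keratins not been left out, at a mean of 0.0767 FPKM in NC, 1.38 in HOMING, 6.29 in BM and 64.6 in TUMOR, and Krt19, at 2.72, 4.61, 0.37 and 21.6. The summed epithelial list ran from 3.30 to 5.43 FPKM in NC and from 72.4 to 119 in TUMOR, while the defining epithelial genes Epcam and Cdh1 had TUMOR means of 0.00667 and 0.03, and Cldn3 and Ap1m2 were listed at 0 in TUMOR. All 3 tested genes of a lung epithelium list, Napsa, Hopx and Aqp5, were also called higher in TUMOR than in NC. Of these, Hopx reached 1 FPKM in the TUMOR libraries only. That list summed to 1.42 to 2.27 FPKM in NC, 8.08 to 12.3 in HOMING, 1.85 to 2.16 in BM and 6.20 to 7.31 in TUMOR, with the surfactant gene Sftpc listed at 0 in TUMOR and the lung factor Nkx2-1 at a mean of 0.0167. The part of Y-linked, epithelial and lung signal in the members' levels was not tested.

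The 10 macrophage and pan-leukocyte genes were highest in HOMING. Their sum was 13.6 to 19.4 FPKM in NC, 482 to 762 in HOMING, 70.2 to 71.4 in BM and 25.1 to 25.6 in TUMOR, where Adgre1 was listed at 0. In TUMOR, Cd68 and Cd14 had means of 12.4 and 11.3 FPKM, and no other gene of this list had a mean over 1. Neutrophil genes summed to 1698 to 2483 FPKM in HOMING, 49.0 to 57.2 in BM and 0.72 to 2.29 in TUMOR. Erythroid genes summed to 1803 to 2948 FPKM in HOMING, 2.11 to 2.47 in BM and 1.18 to 2.05 in TUMOR, and all 5 that were tested were called lower in BM than in HOMING. HOMING replicate 3 was the highest HOMING library for the leukocyte, neutrophil and erythroid sums. The part of blood-cell RNA in the differences between the marrow groups was not tested. The stromal list summed to 1587 to 2788 FPKM, and Vim alone had group means of 866 to 1926. Of its 12 tested genes, 1 was called higher in TUMOR than in NC and 1 lower. Eng rose from a mean of 0.943 to 13.9 FPKM, and Acta2 fell from 341 to 124. On the same list, the mesenchymal stem cell markers Thy1, Nt5e and Lepr had means under 1 FPKM in all 4 groups. Other stromal genes of the list were expressed in every group. Group means ran from 54.25 to 72.8 FPKM for Ly6a, 57.9 to 106 for Prrx1 and 21.9 to 38.7 for Cxcl12. They ran from 8.41 to 19.2 for Pdgfra and from 6.21 to 15.4 for Pdgfrb. In these bulk libraries, fewer cells of a type and less RNA per cell cannot be told apart.

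**Figure D1:**
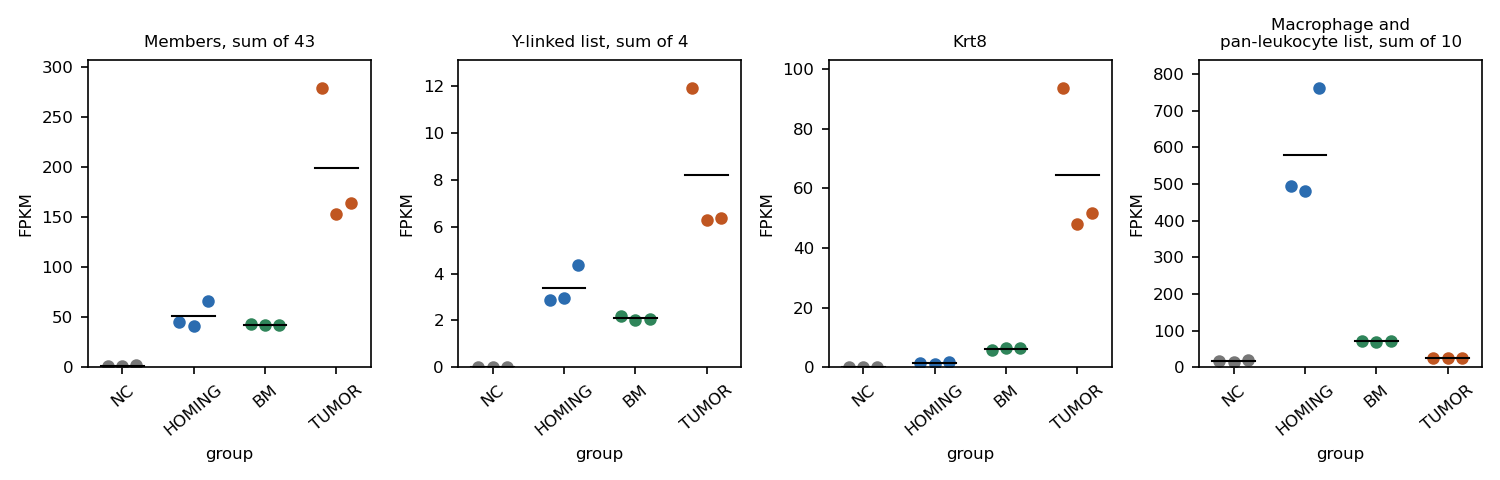
Summed FPKM of the 43 members, of 4 Y-linked genes, of Krt8 alone and of 10 macrophage and pan-leukocyte genes in each library, as points by group, with the group mean as a line (n = 3). TUMOR replicate 1, the first TUMOR point, stands above the other 2 for the members (279.53 against 153.81 and 164.72), the Y-linked genes and Krt8 but not for the leukocyte genes, which are highest in HOMING.

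Across the groups, the members did not fall into an on state and an off state. Their mean levels had a median of 0.0333 FPKM in NC, 0.177 in HOMING, 0.927 in BM and 4.03 in TUMOR. The highest member mean was 10.5 in HOMING, 2.36 in BM and 11.9 in TUMOR. In the BM libraries 42 of 43 members had a mean over 0.1 FPKM and 20 had a mean over 1, and in HOMING 34 were over 0.1 and 9 over 1. The lowest BM library lay above the highest NC library for 42 members, where 43.5% of all 12314 tested genes did the same. HOMING lay fully above NC for 36 members, against 44.9% of tested genes. TUMOR lay fully above NC for all 43, against 44.5% of tested genes with 28.3% the other way round, as the choice of members fixes. All of these counts share the NC values that the rule used, so they describe the members and test nothing.

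**Figure D2:**
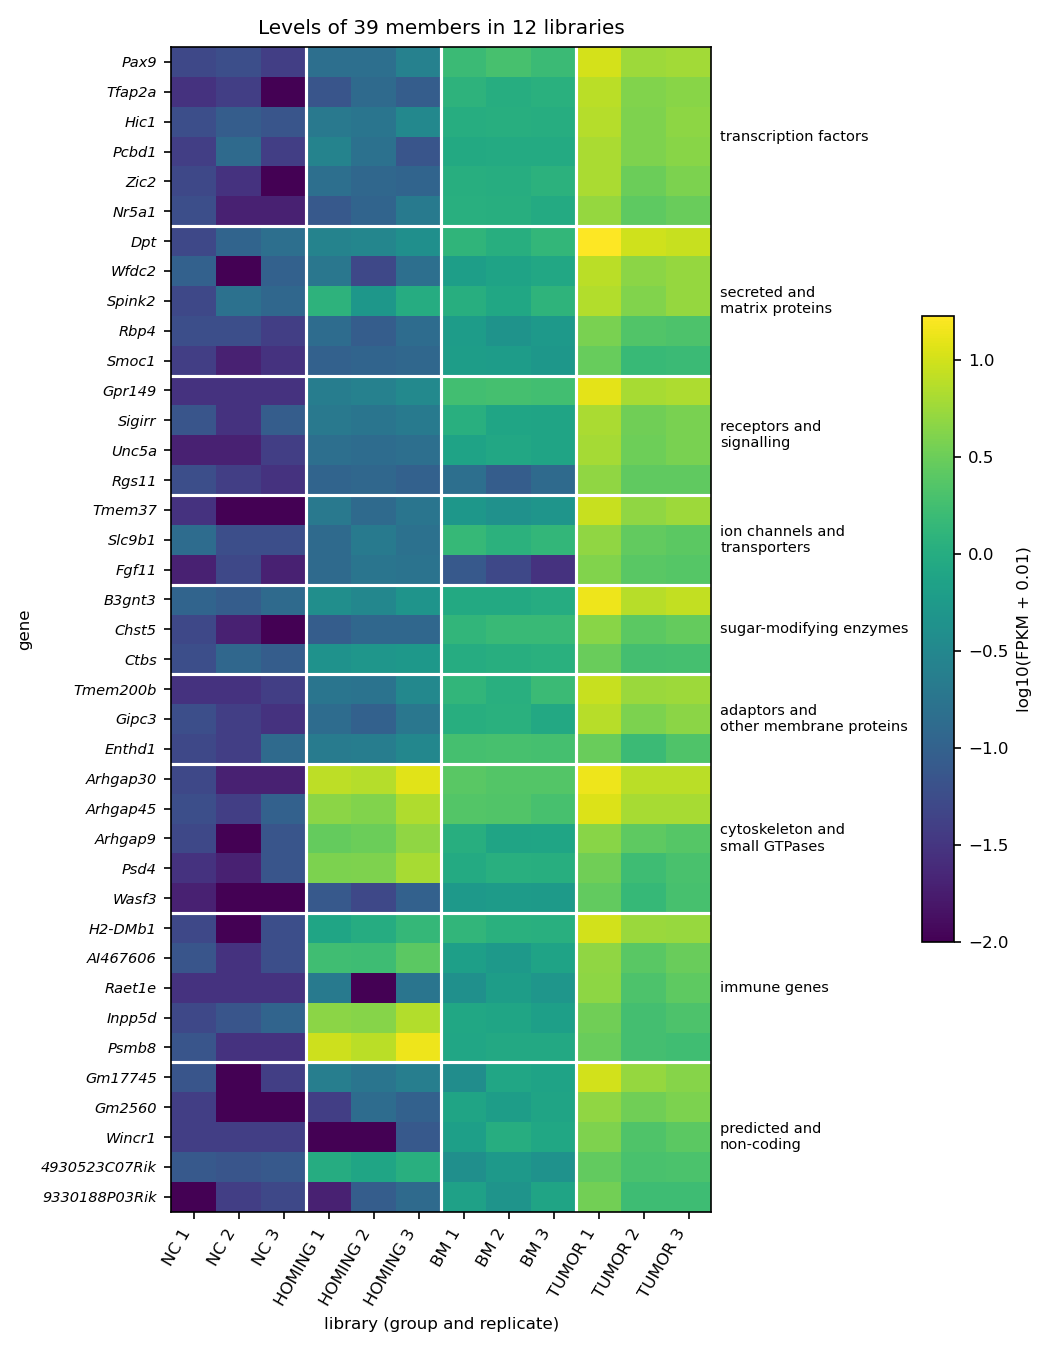
Level of 39 members in each of the 12 libraries, as log10 of FPKM + 0.01, with genes in rows grouped by role and libraries in columns by group. Most rows step up from NC through HOMING and BM to TUMOR, while Psmb8, Arhgap30, Arhgap45, Arhgap9, Psd4, Inpp5d and AI467606 are bright in HOMING as well as in TUMOR.

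The 6 transcription factors and cofactors had BM means of 0.91 to 1.69 FPKM and HOMING means of 0.0867 to 0.223. Pax9, a paired-box factor of pharyngeal pouch, palate and tooth development, stood at 0.04, 0.05 and 0.03 FPKM in NC, 0.14, 0.14 and 0.25 in HOMING, 1.56, 1.91 and 1.59 in BM, and 10.3, 5.68 and 6.05 in TUMOR. No 2 of its 4 groups overlapped. Tfap2a, an AP-2 factor of neural crest and epidermis, stood at 0.02, 0.03 and 0 FPKM in NC, 0.06, 0.12 and 0.08 in HOMING, 1.21, 1.02 and 1.10 in BM, and 7.87, 4.07 and 4.45 in TUMOR. Zic2, a zinc-finger factor of the forebrain, gave 0.04, 0.02 and 0 FPKM in NC, 0.14, 0.11 and 0.10 in HOMING, 1.04, 1.02 and 1.17 in BM, and 6.50, 3.19 and 3.89 in TUMOR. Both followed the same order of groups, with each group apart from the next.

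Between the marrow groups all 6 passed the test as higher in BM, where 3.71% of all 12314 tested genes were called higher in BM and 6.68% lower. The counts of calls in the other roles stand against the same 2 shares. The log2 fold change was 3.27 ± 0.29 (SE) for Pax9, with an edgeR adjusted p of 9.88e-07, 3.71 ± 0.38 for Tfap2a, with 3.45e-06, and 3.22 ± 0.36 for Zic2, with 7.34e-06. Nr5a1, the nuclear receptor that directs adrenal and gonad development, stood at 0.07, 0.10 and 0.20 FPKM in HOMING and 1.07, 1.03 and 0.92 in BM, a log2 fold change of 3.07. Hic1, a zinc-finger repressor whose promoter is often methylated in cancers, stood at 0.19, 0.17 and 0.31 FPKM in HOMING and 1.02, 1.04 and 1.02 in BM, a log2 fold change of 2.25. Pcbd1, an enzyme of pterin metabolism that also serves as a coactivator of HNF1, had 0.27, 0.15 and 0.06 FPKM in HOMING and 0.89, 0.92 and 0.92 in BM, a log2 fold change of 2.50. The BM libraries of these last 3 genes lay close together and above all HOMING libraries. BM reached 18.3% of the TUMOR mean for Pcbd1 and 27.6% for Nr5a1, the lowest and highest of the 6, while HOMING reached 1.59 to 4.14%.

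Among secreted and matrix proteins, Dpt had the highest TUMOR level of any member. Dpt encodes dermatopontin, a small protein of the dermal matrix, and stood at 0.04, 0.10 and 0.14 FPKM in NC, 0.27, 0.29 and 0.39 in HOMING, 1.27, 1.05 and 1.34 in BM, and 16.8, 9.83 and 9.02 in TUMOR. Its BM mean was 10.3% of its TUMOR mean, and BM was above HOMING by 1.96 ± 0.32 (SE) on the log2 scale, with an edgeR adjusted p of 0.000212. Wfdc2, a secreted whey-acidic-protein family member made by many epithelia, stood at 0.18, 0.04 and 0.14 FPKM in HOMING, 0.64, 0.74 and 0.84 in BM, and 7.71, 4.59 and 5.18 in TUMOR. Rbp4, the retinol carrier of plasma, and Smoc1, a calcium-binding matrix protein, were lower, with TUMOR means of 2.68 and 2.02 FPKM. Both were called higher in BM than in HOMING, by 2.27 and 2.47 on the log2 scale, as was Wfdc2 by 2.69.

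Spink2, a serine protease inhibitor known from the male reproductive tract, did not follow the other 4 secreted proteins. It stood at 1.22, 0.50 and 0.98 FPKM in HOMING and 1.04, 0.83 and 1.25 in BM, so the marrow groups overlapped. The difference of 0.22 ± 0.35 (SE) on the log2 scale did not pass (edgeR adjusted p = 0.613), and its sign turned when HOMING replicate 2 was left out. TUMOR, at 7.10, 4.11 and 5.17 FPKM, was above both marrow groups.

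Of the 5 receptors and signalling proteins, 4 were called higher in BM than in HOMING. Gpr149, an orphan G-protein-coupled receptor, was at 0.02 FPKM in each NC library, 0.22, 0.25 and 0.32 in HOMING, 1.76, 1.89 and 1.79 in BM, and 12.3, 6.42 and 6.75 in TUMOR. The BM over HOMING log2 fold change was 2.82 ± 0.28 (SE) for Gpr149, with an edgeR adjusted p of 2.90e-06, and its groups did not overlap. Unc5a, a netrin receptor, and Sigirr, a receptor that dampens interleukin-1 and Toll-like receptor signalling, had BM means of 0.787 and 0.867 FPKM and were higher than in HOMING by 2.54 and 2.23 on the log2 scale.

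Rgs11, which speeds GTP hydrolysis on G-protein alpha subunits, had nearly the same low level in both marrow groups. It stood at 0.05, 0.03 and 0.02 FPKM in NC, 0.10, 0.11 and 0.09 in HOMING, 0.14, 0.08 and 0.12 in BM, and 4.90, 2.77 and 2.76 in TUMOR. BM and HOMING overlapped, and their difference of 0.33 ± 0.42 (SE) on the log2 scale did not pass (edgeR adjusted p = 0.52). Its BM mean was 3.26% of its TUMOR mean.

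Of the 5 ion channels and transporters, 3 were called higher in BM than in HOMING and 1 lower. Fgf11, an intracellular fibroblast-growth-factor homologue that modulates sodium channels, stood at 0.01, 0.04 and 0.01 FPKM in NC, 0.12, 0.17 and 0.16 in HOMING, 0.07, 0.04 and 0.02 in BM, and 4.12, 2.52 and 2.35 in TUMOR. It was the 1 member whose BM libraries overlapped NC, and its BM mean was 1.45% of its TUMOR mean, the lowest in the set. BM was below HOMING by an edgeR log2 fold change of -2.01 ± 0.54 (SE), with an adjusted p of 0.00644, at 20 summed counts in BM against 82 in HOMING. The call was lost in limma, at -0.81 on log2(FPKM + 0.1) and -0.14 on log2(FPKM + 1).

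Tmem37, which resembles a calcium-channel subunit, had 0.19, 0.12 and 0.17 FPKM in HOMING, 0.50, 0.42 and 0.47 in BM, and 9.05, 4.89 and 5.59 in TUMOR. Slc9b1, a sodium-proton exchanger known from sperm, had 0.12, 0.20 and 0.15 FPKM in HOMING, 1.43, 1.19 and 1.37 in BM, and 4.95, 2.79 and 2.61 in TUMOR. BM exceeded HOMING for both, by 1.55 and 2.57 on the log2 scale. 

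The 3 sugar-modifying enzymes were all higher in BM than in HOMING. Chst5, a sulfotransferase acting on N-acetylglucosamine, stood at 0.04, 0.01 and 0 FPKM in NC, 0.08, 0.11 and 0.11 in HOMING, 1.31, 1.54 and 1.54 in BM, and 4.50, 2.57 and 2.87 in TUMOR. Its log2 fold change of 3.87 ± 0.33 (SE), with an edgeR adjusted p of 7.47e-07, was the largest among protein-coding members. B3gnt3, which extends sugar chains used as selectin ligands, had the second highest TUMOR level with Arhgap30, at 13.9, 7.53 and 8.45 FPKM, but only 0.90, 0.90 and 0.98 in BM and 0.38, 0.30 and 0.46 in HOMING. BM was thus 9.30% of TUMOR for B3gnt3 and 44.2% for Chst5. Ctbs, a lysosomal chitobiase, rose from a mean of 0.48 FPKM in HOMING to 1.04 in BM, a log2 fold change of 1.13.

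Adaptors and other membrane proteins were likewise higher in BM in 3 of 3 cases. Tmem200b, whose CpG-rich promoter is printed above, stood at 0.02, 0.02 and 0.03 FPKM in NC, 0.17, 0.16 and 0.31 in HOMING, 1.31, 1.08 and 1.56 in BM, and 9.02, 5.45 and 5.59 in TUMOR. Enthd1, a protein with an epsin-type domain, stood at 0.21, 0.22 and 0.30 FPKM in HOMING, 1.87, 1.91 and 1.88 in BM, and 3.07, 1.57 and 2.18 in TUMOR. This was the 1 member whose BM and TUMOR libraries overlapped, with BM at 83.0% of the TUMOR mean. TUMOR lay fully above BM for the other 42 members, where 41.4% of all tested genes did so. Gipc3, a PDZ adaptor needed in the inner ear, had 0.13, 0.09 and 0.18 FPKM in HOMING, 1.03, 1.10 and 0.87 in BM, and 7.65, 3.84 and 4.57 in TUMOR. The BM over HOMING log2 fold changes were 2.76, 3.03 and 2.89 for Tmem200b, Enthd1 and Gipc3, with edgeR adjusted p of 4.11e-06, 6.05e-06 and 1.51e-05.

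Regulators of the cytoskeleton and small GTPases split into 2 directions. Arhgap30, a GTPase-activating protein for small GTPases, stood at 0.04, 0.01 and 0.01 FPKM in NC, 8.07, 7.44 and 12.1 in HOMING, 2.48, 2.32 and 2.27 in BM, and 14.1, 7.90 and 7.87 in TUMOR. HOMING and TUMOR overlapped, and BM lay below both. Arhgap45, of the same family, followed with 4.64, 4.10 and 6.93 FPKM in HOMING, 2.32, 2.21 and 1.91 in BM, and 11.3, 6.37 and 6.43 in TUMOR. Psd4, an exchange factor for ARF6, was higher in HOMING, at 3.83, 4.00 and 6.38 FPKM, than in TUMOR, at 3.40, 1.68 and 1.98, with 0.94, 1.08 and 1.04 in BM. Arhgap9, another GTPase-activating protein, had means of 3.68 FPKM in HOMING, 0.863 in BM and 3.15 in TUMOR. BM was lower than HOMING for all 4, with log2 fold changes of -1.94 ± 0.24 (SE) for Arhgap30, -1.37 ± 0.25 for Arhgap45, -2.19 ± 0.28 for Psd4 and -2.02 ± 0.32 for Arhgap9, and edgeR adjusted p of 2.29e-05, 0.000541, 2.41e-05 and 0.000167.

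Wasf3, an activator of actin branching, went the other way. It stood at 0.07, 0.04 and 0.09 FPKM in HOMING, 0.55, 0.58 and 0.57 in BM, and 2.81, 1.43 and 1.93 in TUMOR, and BM was above HOMING by 3.11 ± 0.32 (SE) on the log2 scale, with an edgeR adjusted p of 3.89e-06. 

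Of the 5 immune genes, 3 were called lower in BM than in HOMING and 1 higher. Psmb8, a catalytic subunit of the immunoproteasome, stood at 0.06, 0.02 and 0.02 FPKM in NC, 9.53, 7.80 and 14.0 in HOMING, 0.81, 0.87 and 0.87 in BM, and 3.11, 1.80 and 1.70 in TUMOR. Inpp5d, the SHIP1 phosphatase of blood cells, stood at 4.63, 4.36 and 7.14 FPKM in HOMING, 0.83, 0.78 and 0.66 in BM, and 3.31, 1.81 and 2.10 in TUMOR. In both genes every HOMING library was above every TUMOR library, and every TUMOR library was above every BM library. The BM over HOMING log2 fold change was -3.58 ± 0.28 (SE) for Psmb8 and -2.82 ± 0.26 for Inpp5d, with edgeR adjusted p of 3.25e-07 and 1.62e-06, and AI467606, which encodes a membrane protein, also fell, with -1.59.

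H2-DMb1, a chain of the molecule that loads peptides onto class II histocompatibility proteins, was one of 4 members without a call between the marrow groups. It stood at 0.78, 0.99 and 1.39 FPKM in HOMING, 1.32, 1.12 and 1.07 in BM, and 10.2, 5.49 and 5.32 in TUMOR, and its log2 difference was 0.18 ± 0.32 (SE, edgeR adjusted p = 0.651). Raet1e, a ligand of the NKG2D receptor of natural killer cells, had 0.20, 0 and 0.17 FPKM in HOMING and 0.41, 0.61 and 0.48 in BM, and was called higher by 2.01. H2-DMb1 has a near-identical neighbour copy and Raet1e has close paralogs, so their reads could have been split by the authors' counting and these values are uncertain. The leukocyte list, lower in BM than in HOMING for 9 of its 10 genes, moved with Psmb8, Inpp5d, Psd4, Arhgap9, Arhgap30, Arhgap45 and AI467606 between the marrow groups. In TUMOR the same list summed to 25.1 to 25.6 FPKM, with Cd68 at a mean of 12.4 and Cd14 at 11.3. The NC means of Cd68 and Cd14 were 5.26 and 9.98, and the rest of the list had TUMOR means under 1 FPKM. These 7 members had TUMOR means of 2.20 to 9.97. The part of leukocyte RNA in their HOMING levels was not tested.

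Of the 5 predicted or non-coding genes, 4 were called higher in BM than in HOMING and 1 lower. The 1 lower call was lost without a filter, without HOMING replicate 1 or 3 and without BM replicate 1 or 3. In these edgeR fits its log2 fold change of -1.01 moved to between -0.99 and -0.91. It was also lost in limma, at -0.92 on log2(FPKM + 0.1) and -0.42 on log2(FPKM + 1). In limma on log2(FPKM + 1) all 4 higher calls were lost too, at 0.43 to 0.84. Without HOMING replicate 2 or BM replicate 2 or 3, 1 of the 4 was lost in edgeR. Wincr1, a long non-coding RNA, was listed at 0 in 2 HOMING libraries and at 0.07 FPKM in the other, with 0.66, 1.00 and 0.83 in BM and 3.94, 2.18 and 2.61 in TUMOR. It had 72 summed counts in BM against 2 in HOMING, a ratio scaled by library of 35.5 with an exact 95% interval of 9.46 to 298 that covers counting error only. Because strand is not stated in the sources used here, reads from such RNAs and from genes that overlap them cannot be told apart.

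In all, 30 of the 43 members were called higher in BM than in HOMING, where 3.71% of the 12314 tested genes were, and 9 were called lower, where 6.68% were. All 43 members passed the low-value filter, but 22 would not have passed without the TUMOR libraries, the group in which the rule made them high. Of the 21 that pass without TUMOR, 11 were called higher and 7 lower, with a median log2 fold change of 1.07, so 19 of the 30 higher calls come from the other 22. To be called, a gene had to pass an adjusted p of 0.05 and differ at least 2-fold, which is 1 on the log2 scale. The median log2 fold change of all 43 members was 2.23, against -0.0047 over all genes tested, and the called members had adjusted p from 3.25e-07 to 0.02 in edgeR's quasi-likelihood test with Benjamini-Hochberg adjustment. In the raw levels, 30 members had all BM libraries above all HOMING libraries (33.4% of tested genes did) and 10 had the reverse (38.9%). In limma on log2(FPKM + 1) the counts were 5 higher and 5 lower.

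**Figure D3:**
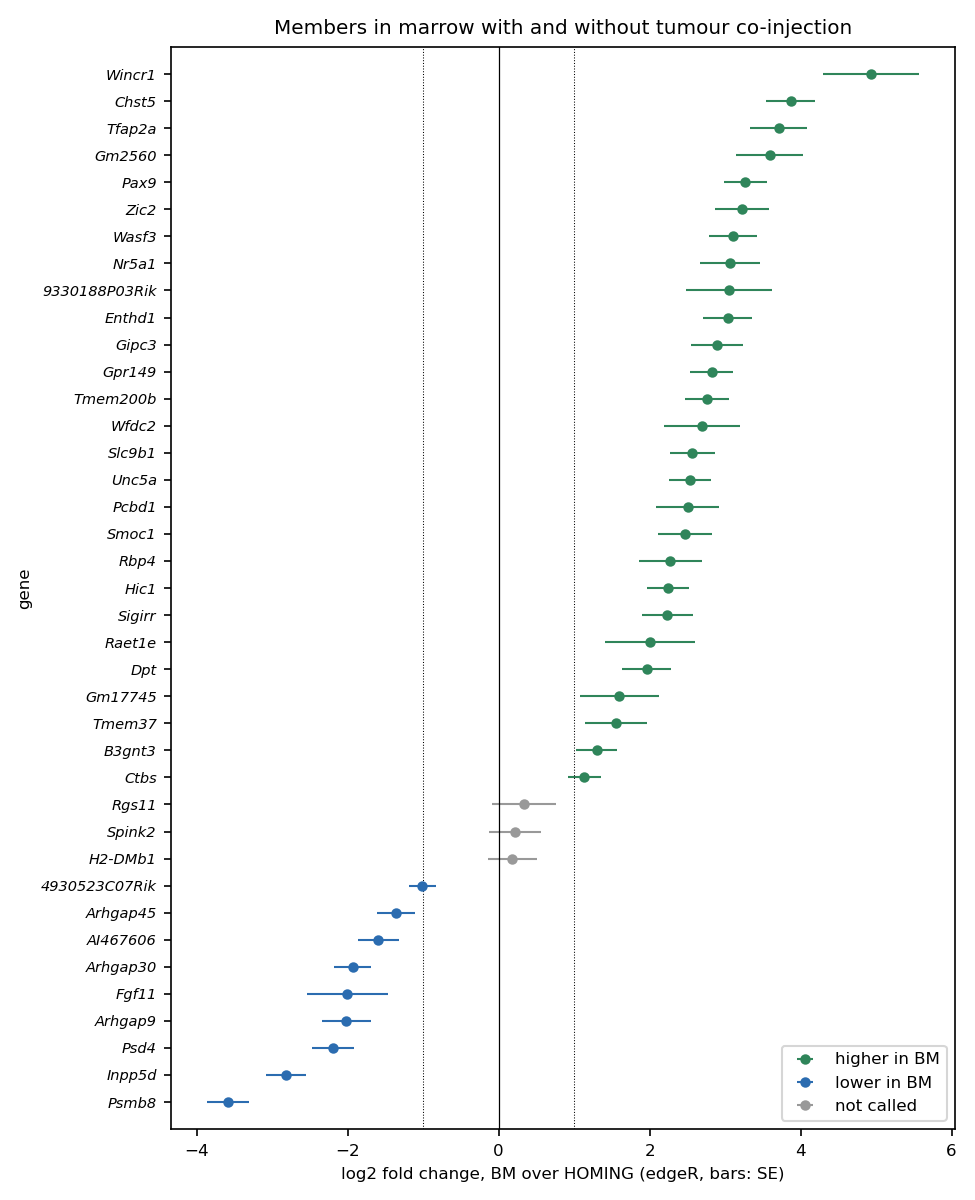
Log2 fold change of BM over HOMING for 39 members from edgeR, as points with bars of 1 SE (n = 3 libraries a group), with dotted lines at the 2-fold minimum and colours for the call. Over all 43, the 30 called higher run from 1.07 to 4.93 and the 9 called lower from -3.58 to -1.01, with H2-DMb1, Spink2 and Rgs11 among the 4 not called.

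Relative to the inoculation site, the marrow groups differed in how evenly they carried the set. BM was 1.45 to 83.0% of the TUMOR mean, with a median of 20.3%. HOMING was 0.802 to 474% of it, with a median of 3.89%, and for Inpp5d, Psd4, Psmb8 and Arhgap9 the HOMING mean was above the TUMOR mean. TUMOR lay fully above HOMING for 36 members, where 34.9% of tested genes did. Among the BM libraries the summed level varied little, from 42.3 to 42.9 FPKM. Among the HOMING libraries replicate 3 was highest for 27 members. Its level was at a median of 1.38 times the mean of the other 2, against 0.998 over all expressed genes. The 12 genes that the rule left out, Krt8 and 3 Hoxd genes among them, had BM at a median of 25.6% of TUMOR and a TUMOR replicate 1 ratio of 1.79.

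**Figure D4:**
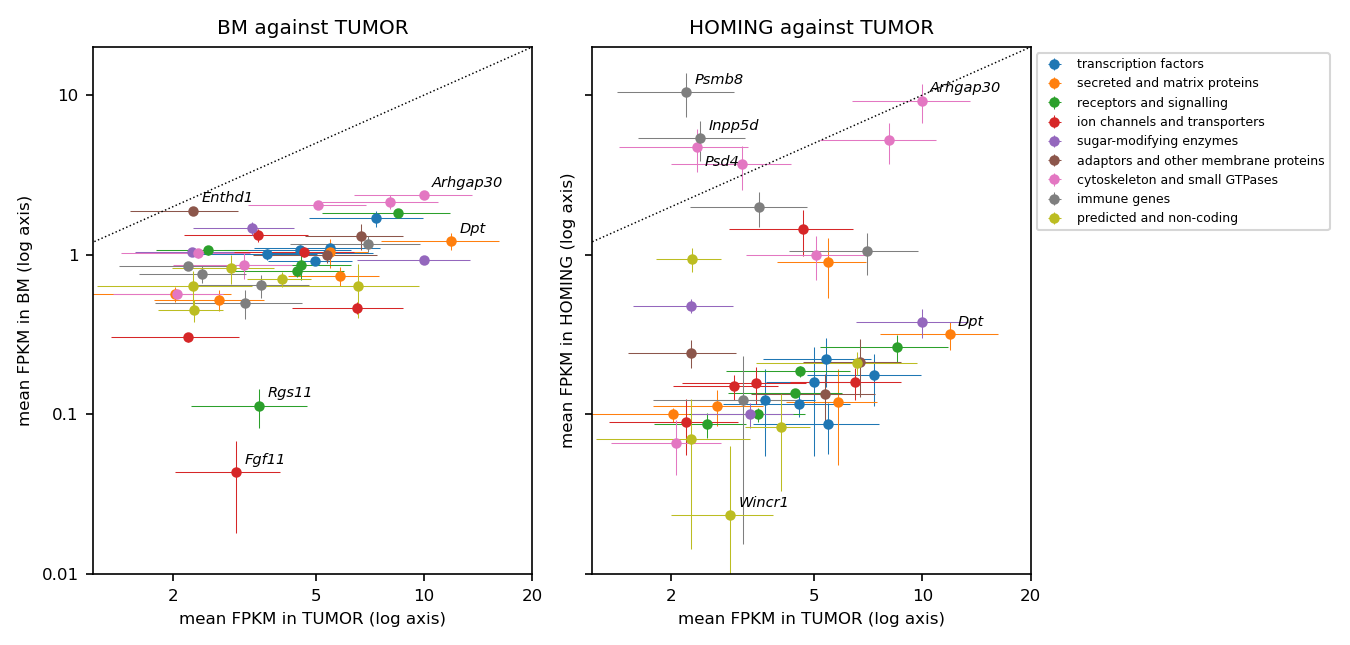
Mean FPKM of each member in BM (left) and in HOMING (right) against its mean in TUMOR, all on log axes, with bars of 1 SD over 3 libraries (lower bars stop within the axis), colours for the role and a dotted line of equality. In BM 37 members lie over 0.5 FPKM, with Fgf11 and Rgs11 far below, while HOMING spreads from 0.0233 (Wincr1) to 10.5 (Psmb8).

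The limits of the rule cut through a continuous range. Just inside the NC limit lay Spink2 and B3gnt3, both with a mean of 0.1 FPKM, and just outside lay Selenbp2 at 0.12 and the class I gene H2-T22 at 0.123. At the TUMOR limit, Smoc1 at 2.02 and Wasf3 at 2.06 FPKM were just inside, and the receptor gene Erbb3 at 1.99 and the sialyltransferase gene St6gal1 at 1.92 were just outside.

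What the promoters share was read from RefSeq windows of 250 bases before to 50 after the start, which were found for 31 of the 43 members. The members' median ratio of observed to expected CpG was 0.504, between 0.764 for the 9512 tested genes with a window and 0.390 for all 27025 genes in the table. A ratio of at least 0.6 was reached by 10 of 31 members (32.3%), by 72.9% of tested genes and by 35.5% of the whole table. The members ranged from 0.184 for H2-DMb1 to 0.927 for Tmem200b, and Unc5a (0.816), Gipc3 (0.79), Rbp4 (0.72), Tmem37 (0.701), Pax9 (0.679) and Tfap2a (0.665) were toward the CpG-rich end. Of the 7 members bright in HOMING, 6 had a window, and their ratios ran from 0.255 for Arhgap45 to 0.523 for Psmb8. On either strand, the TATA box TATAAA was found in 4 members (12.9%, against 8.81% of tested genes and 15.7% of the table) and the GC box GGGCGG in 19 (61.3%, against 69.5% and 38.2%). These are letter matches in the windows, and the 2 motifs were counted independently of each other.

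**Figure D5:**
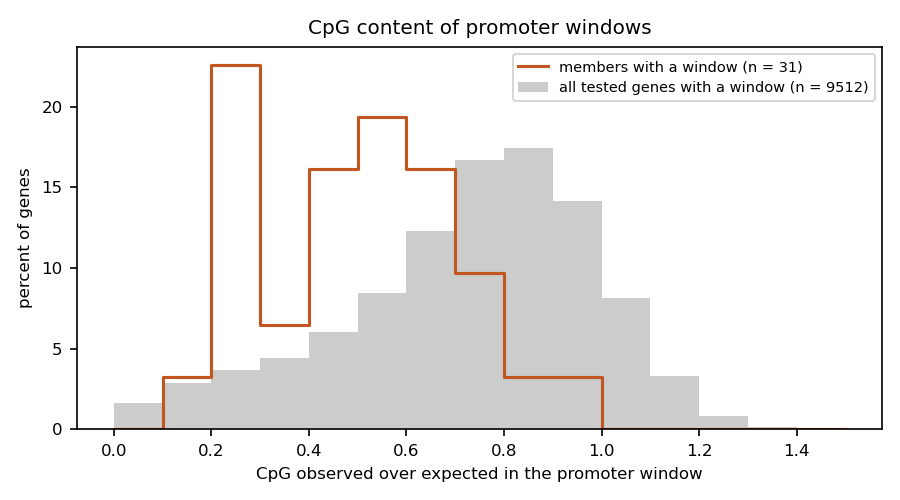
Share of genes by the ratio of observed to expected CpG in the promoter window, as grey bars for the 9512 tested genes and as a line for the 31 members with a window. The members' median of 0.504 lies below the tested genes' median of 0.764, and 2 members exceed a ratio of 0.8.

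Enzymes that write or read silencing marks were examined as a list of 26 tested genes for DNA methylation and Polycomb. In TUMOR against NC 4 of them were higher and 1 lower, where 9.75% of all tested genes were higher and 6.65% lower. Dnmt3l, a cofactor of the de novo methyltransferases, rose from 0.46 ± 0.104 (SD, n = 3) to 4.32 ± 1.03 FPKM, a log2 fold change of 3.11. Tet2, which oxidises methylcytosine, rose from 2.17 to 6.25 FPKM, and the Polycomb proteins Cbx7 and Jarid2 rose from 1.99 to 5.60 and from 1.54 to 5.60. The edgeR adjusted p of these 4 genes was 2.03e-07 or less, and between BM and HOMING 0 of the 26 were called by edgeR, DESeq2 or limma. There, 5 were higher and 8 lower at an unadjusted edgeR p under 0.05, all by less than 2-fold.

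Developmental transcription factors beyond the members moved in both directions. Of 31 tested factors outside the set, 7 were higher in TUMOR than in NC and 6 were lower, where 9.75% and 6.65% of all tested genes were. Pax6, a factor of eye and forebrain just under the TUMOR limit of the set, rose from 0.00333 to 1.89 FPKM, and Six3, Tbx4, Otx1, Dlx1, Dlx2 and Sox9 also rose. Pax6, Six3, Tbx4 and Otx1 reached the filter's 1 FPKM in the TUMOR libraries only, the group in which they were called higher. The 7 higher calls are thus partly fixed by the filter. Gata3, Gata4, Foxf1, Irx1 and Irx3 were among those that fell, Gata4 from 3.28 to 0.81 FPKM. Between BM and HOMING 7 of the 31 were called higher in BM and 0 lower by edgeR and by DESeq2, against 3.71% and 6.68% of all tested genes in edgeR, while at an unadjusted edgeR p under 0.05 15 were higher and 3 lower. In limma on log2(FPKM + 1), 1 was called higher and 0 lower. The 7 called higher in BM by edgeR include Pax6, Six3, Tbx4 and Otx1, which were tested only through their TUMOR levels.

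Genes next to the members were looked up in RefSeq order. The members had 86 coding neighbours outside the set, and of the 49 that were tested 11 were higher in TUMOR than in NC (22.4%, against 9.75% of all tested genes) and 2 were lower (4.08%, against 6.65%). Slc25a21, a mitochondrial carrier next to Pax9, was listed at 0 in all NC libraries and rose to a mean of 1.27 FPKM in TUMOR. Arhgdig, an inhibitor of small GTPases next to Rgs11, rose from 0.16 to 5.65 FPKM and reached 1.55 in BM, where Rgs11 itself stood at 0.113. Beside H2-DMb1 and Psmb8, the antigen-processing genes Psmb9, Tap1 and Tap2 rose, with TUMOR means of 0.703, 2.02 and 7.48 FPKM. These calls share a single stretch of the chromosome. The other neighbours that rose were Elk3, Dbi, Hopx, Pkp3, Napsa and 1 predicted gene, and those that fell were Runx1t1 and Il1rn. Slc25a21 and Hopx reached the filter's 1 FPKM in the TUMOR libraries only, the group in which they were called higher. The median log2 fold change of the 49 neighbours was 0.28, against 0.009 over all genes tested.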

How the data were processed

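RNA sequencing of 12 libraries, made from sorted cells with a TruSeq kit per the labels, was used. The authors deposited expected counts (estimated reads per transcript, not normalized) and FPKM (scaled by the authors to transcript length and mapped fragments). Per the submitters' processing notes, Bowtie 0.12.2 and genome build mm8 were used; a counting program is named in none of the sources used here. Both units were summed per gene, with unlisted transcripts at 0. The 1322 genes without an Entrez number (2.08 to 2.65% of counts) were left out as members. Of 19679 Entrez numbers, 19629 matched a symbol. The lowest FPKM listed is 0.01.

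The filter kept 12314 genes that reached 1 FPKM in 3 or more libraries. Their rounded counts were scaled by TMM and fitted in edgeR 4.0.16 (R 4.3.3) by a two-sided quasi-likelihood test over all 4 groups, with Benjamini-Hochberg adjustment. This test was used because the files hold counts. The scripts were tested on simulated data. Alternatives were DESeq2 1.42.0, limma 3.58.1 on log2(FPKM + 1) and log2(FPKM + 0.1), DESeq2's size factors in edgeR, no filter, the compared groups alone, a replicate block and each library left out. Promoters came from RefSeq on GRCm38.p6, and no coordinates on mm8 are given.

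The members, the 18 gene lists and the tests were chosen with earlier results of these data known. The Y-linked genes and Xist, and the role of each member, were added after the values were seen. Named were the 20 members highest in TUMOR, the 5 highest in HOMING and in BM, the 6 largest calls in each direction and the 2 genes nearest each limit on each side, with predicted genes only counted. Some genes that the rule names are not reported here by name but are in the counts. Other members and genes were named after their values were seen.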

Additional observations from a re-analysis of the deposited data

How the results depend on the processing

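The set holds 22 genes when the TUMOR limit is 4 FPKM and 0 genes when every NC library must be at 0, and 34 to 48 when 1 library is left out. Medians in place of means give 37 genes, 35 of them shared, and the most abundant transcript in place of the gene sum gives 46, of which 31 are shared.

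Between BM and HOMING, 30 members were higher and 9 lower in DESeq2, with DESeq2's size factors and with the compared groups alone. Without a filter the counts were 30 and 8. Leaving out 1 library gave 28 to 30 higher and 8 to 9 lower. In limma on log2(FPKM + 0.1) they were 29 and 7, and on log2(FPKM + 1), a scale that shrinks differences below 1 FPKM, 5 and 5. Of 559 single-gene values under these alternatives, 516 kept their direction and call, 42 lost the call, and 1 turned: Spink2 stood at -0.066 (edgeR adjusted p = 0.882) without HOMING replicate 2, in a range of -0.066 to 0.51 over the libraries left out in turn, and the cause was not tested.

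Replicate numbers gave no sign of pairing: same-numbered libraries had correlations of -0.12 to 0.22 over 18 pairs and others -0.155 to 0.199 over 36. With 3 libraries a group, these overlapping ranges cannot exclude pairing. With the replicate block the counts were 30 and 9.

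The neighbours higher in TUMOR than in NC, a count added after the data were seen, numbered 8 to 12. The developmental factors, from 1 of the 18 gene lists, numbered 7 to 8 higher and 4 to 6 lower. Depth limits the least expressed members: Wincr1 had 2 counts in HOMING and Fgf11 had 20 in BM.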
